A study of Mus musculus with 5 samples.

Results

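Neurons release transmitter from synaptic vesicles, and the genes described here encode 36 proteins of that machinery: vesicle proteins, SNAREs, complexins, active zone scaffolds and the calcium channel of photoreceptor terminals. They were chosen by name, and all 36 were found among the 24594 genes of the deposited table from developing mouse retina. Of the 36, 9 belong to ribbon synapses, 6 to conventional synapses, and 21 act at both or have no clear split. The classes come from textbook knowledge.

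At a conventional synapse, calcium enters through voltage-gated channels and synaptotagmin on the vesicle triggers fusion by the SNARE complex, which complexin clamps and assists. Photoreceptors and bipolar cells of the retina instead release glutamate continuously at ribbon synapses, where a plate built from the Ribeye protein tethers vesicles beside L-type calcium channels. These terminals use syntaxin 3 in place of syntaxin 1, complexins 3 and 4 in place of 1 and 2, and lack synapsins.

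The control group carried a CAG-GFP plasmid and the other group a CAG-Zfp292 plasmid, a construct for overexpression (OE) of Zfp292, a large nuclear zinc finger protein. Both were electroporated in vivo into mouse pups at postnatal day 0, and retinas were harvested 4 days later. CAG is a strong promoter that is active in most cell types and not specific to one kind of retinal cell. GFP-positive cells, called retinal progenitor cells (RPCs) in the labels, were sorted for RNA sequencing, giving 2 control libraries and 3 libraries labelled Zfp292-OE. The labels give no strain, sex or genotype. Nothing in them ties a library to its own animals or litter, so each p-value is set by library-to-library spread that could be technical.

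The libraries held 103096224 to 137683716 reads assigned to genes. Zfp292 itself (chromosome 4, 34803110 to 34882983) stood at 13288 and 14756 normalised reads in the control libraries and 14631, 13197 and 15534 in the labelled ones. The groups overlapped, with a log2 fold change of 0.04 (SE 0.14, limma adjusted p = 0.87). Each direction below is therefore that of the labels. Although the cells were labelled as progenitors, rod genes were abundant: 14 rod markers summed to 1019810 and 1203742 normalised reads in controls and 313773 to 366391 in the labelled libraries. In bulk samples such as these, fewer cells of a type and less RNA per cell cannot be told apart.

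Most of the release genes were lower in the libraries labelled Zfp292-OE. Of the 36, all of which passed the filter on low values, 25 fell, 0 rose and 11 did not pass (limma, Benjamini-Hochberg adjusted p below 0.05 over 16316 genes). Across all tested genes the share called lower was 7.38% and the share called higher 10%. The median log2 fold change of the 36 was −1.04, about −1 in each labelled library (−1.13, −1.10 and −1.0 in libraries 1, 2 and 3), against −0.06 for all tested genes. For 31 members every labelled library lay below both controls, which held for 25.7% of all tested genes, and for 1 member, Unc13a, every labelled library lay above, which held for 24.3% (49.9% in either direction). edgeR on the whole reads also called 25 lower and 0 higher, beside 7.78% of all tested genes lower. With either control left out no gene passed in limma. Then 24 members still had an unadjusted p below 0.05 in the lower direction without control 1, beside 1822 of all tested genes, and 24 without control 2, beside 1475. The 25 kept a negative fold change in both fits, with adjusted p of 0.074 to 0.23 and 0.13 to 0.25.

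**Figure D1:**
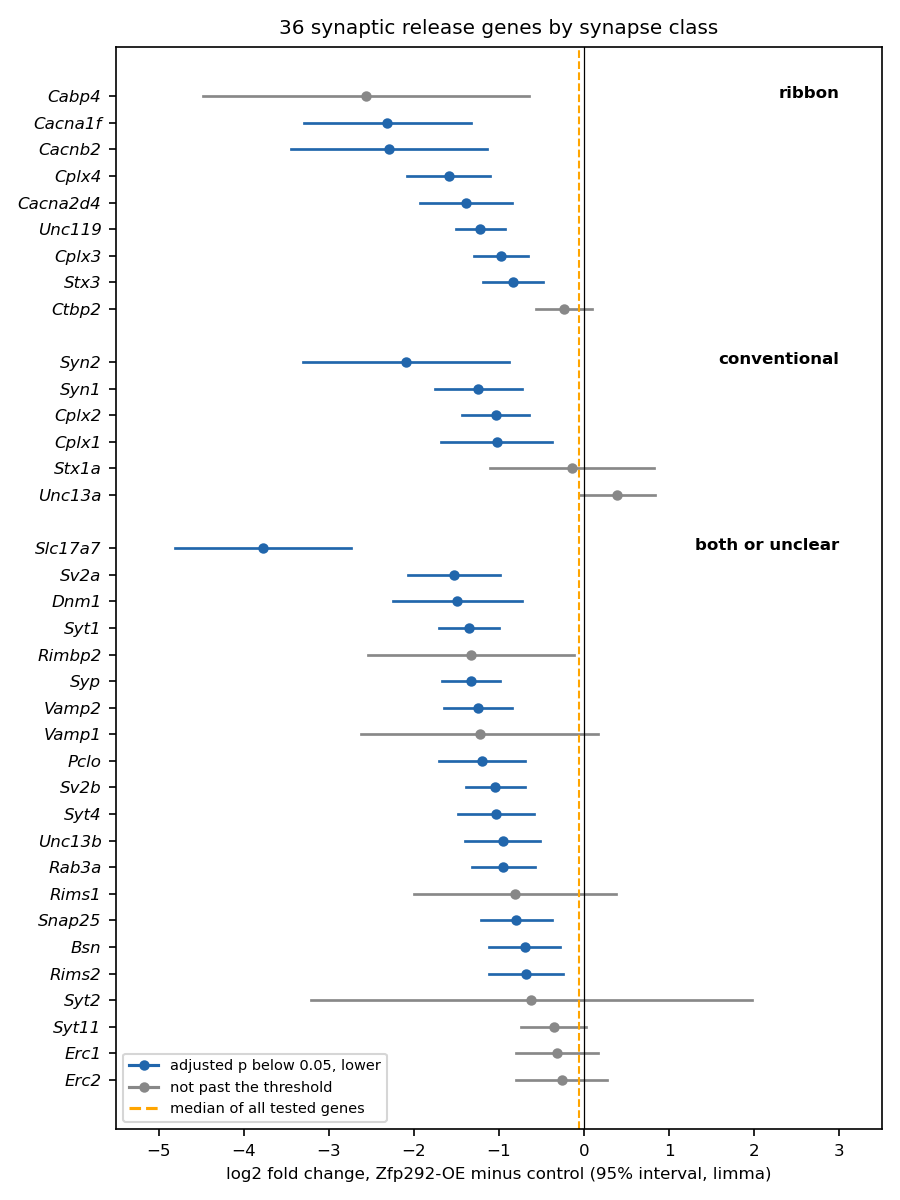
Log2 fold change of each of the 36 genes (x axis, libraries labelled Zfp292-OE minus control) with the 95% interval from limma, sorted within ribbon, conventional and remaining genes. Blue marks an adjusted p below 0.05; 25 genes are blue, all left of 0, and Unc13a alone lies right of it.

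Promoter sequence was compared because these genes moved together. RefSeq (GRCm38.p6) gave windows of 300 bases, from 250 before to 50 after a transcription start, for 29 of the 36 genes. The letters TAATCC, the core recognised by Crx and Otx2, homeodomain factors of photoreceptors and bipolar cells, were searched on both strands, where the reverse reads GGATTA. They occurred for 5 of the 29 genes (Sv2b, Ctbp2, Unc119, Stx3 and Syp), or 17.2%, and for 8.14% of all 27025 genes with a window. A gene with several starts has several windows. Per window, the letters occurred in 6 of 40 for the members (15%) and in 2320 of 32851 for all genes (7.06%). They occurred for 4 of 19 members called lower and 1 of 10 not passed. With so few genes, enrichment was not tested. By class they occurred for 3 of 6 ribbon genes, 0 of 6 conventional genes and 2 of 17 others, numbers too small to rank the classes. A match is a description of letters and not a bound site. The 250 bases before the start are shown for the gene that fell most, for the most abundant ribbon gene, for a vesicle protein of both synapse kinds, and for the start that gives Ribeye, with matches in capitals. In order, they lie at chr7:45163671-45163920 (plus strand), chr11:78345334-78345583 (plus), chrX:7638330-7638579 (plus) and chr7:133015248-133015497 (minus).
Slc17a7: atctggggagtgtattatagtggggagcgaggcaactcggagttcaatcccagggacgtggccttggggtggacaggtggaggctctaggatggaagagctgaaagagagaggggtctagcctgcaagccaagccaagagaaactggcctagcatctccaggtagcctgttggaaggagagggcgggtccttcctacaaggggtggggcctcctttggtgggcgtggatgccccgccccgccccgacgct
Unc119: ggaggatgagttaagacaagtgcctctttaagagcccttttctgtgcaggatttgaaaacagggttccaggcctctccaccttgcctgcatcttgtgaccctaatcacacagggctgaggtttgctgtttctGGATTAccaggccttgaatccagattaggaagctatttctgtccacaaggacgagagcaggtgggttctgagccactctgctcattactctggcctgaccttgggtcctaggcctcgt
Syp: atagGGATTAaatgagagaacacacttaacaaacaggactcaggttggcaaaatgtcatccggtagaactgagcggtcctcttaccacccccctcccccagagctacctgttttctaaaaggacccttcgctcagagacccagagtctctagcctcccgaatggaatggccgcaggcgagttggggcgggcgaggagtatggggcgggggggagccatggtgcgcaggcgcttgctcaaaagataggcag
Ctbp2: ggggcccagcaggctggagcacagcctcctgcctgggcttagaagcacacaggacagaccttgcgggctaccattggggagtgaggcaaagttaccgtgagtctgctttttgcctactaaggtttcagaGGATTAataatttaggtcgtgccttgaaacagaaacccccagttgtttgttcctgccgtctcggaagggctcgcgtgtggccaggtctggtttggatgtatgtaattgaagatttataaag
The match lies 118 bases before the second of 3 listed starts of Unc119, 246 bases before that of Syp and 121 bases before the downstream start of Ctbp2. The starts shown for Unc119 and Ctbp2 were picked because each holds a match, that of Ctbp2 also being the Ribeye start. The other listed starts of both genes had none. The stretches shown therefore do not give the share of genes with a match. Slc17a7, whose fall was the deepest, has no match in its window, and neither has Cacna1f.

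Vesicle proteins were lower in most cases, with 9 of 11 called and none higher (median log2 fold change −1.24). Slc17a7, the vesicular glutamate transporter VGLUT1 that fills vesicles of photoreceptors and bipolar cells (chromosome 7, 45163921 to 45176139), had 1117 and 1139 normalised reads in the control libraries. The labelled libraries had 71.9, 94.0 and 79.5, far below both controls and close to one another. That is 13.7-fold lower, a log2 fold change of −3.78 (SE 0.46, adjusted p = 0.00094), the largest fall among the 36. Slc17a6, the related transporter VGLUT2 of ganglion cells, had 318 and 364 in controls and 339, 219 and 729 in the labelled libraries, so those groups overlapped (log2 fold change 0.15, adjusted p = 0.87).

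Syt1, the calcium sensor for fast fusion (chromosome 10, 108497650 to 109010980), went from 24972 and 24398 to 10557, 10394 and 8178. Every labelled library was far below either control, and the fall was 2.56-fold (log2 −1.36, SE 0.16, adjusted p = 0.00072). Syp, synaptophysin of the vesicle membrane (chromosome X, 7638580 to 7653256), had 16787 and 14661 in controls and 5701, 6743 and 6340.1 in the labelled libraries, again without overlap (2.51-fold lower, SE 0.15 on the log2 scale, adjusted p = 0.00072). The SV2 glycoproteins of the vesicle both fell. Sv2a went from 5361 and 5892 to 1827, 2610.0 and 1555 (log2 −1.53, SE 0.24, adjusted p = 0.0030). Sv2b, the form found in photoreceptor terminals, went from 11095 and 12673 to 5427, 6219 and 5634 (log2 −1.04, SE 0.16, adjusted p = 0.0023). Rab3a, the vesicle GTPase that binds RIM, had 41954 and 32041 in controls and 17335, 22026 and 17994 in the labelled libraries (1.93-fold lower, SE 0.17 on the log2 scale, adjusted p = 0.0055).

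Synapsins coat vesicles at conventional synapses and are missing from ribbon terminals, and both fell. Syn1 (chromosome X, 20860511 to 20920918) had 2540.5 and 2726 in controls and 1117, 1019 and 1203 in the labelled libraries, a log2 fold change of −1.24 (SE 0.23, adjusted p = 0.0063). Syn2 was low throughout, at 396 and 531 and then 161, 82.7 and 92.1, and its larger change of −2.09 carried a larger error (SE 0.54, adjusted p = 0.028). The call for Syn2 was lost without labelled library 2 or 3 and with no filter on low values (adjusted p 0.0023 to 0.23 over 14 alternatives). The remaining synaptotagmins did not move as one. Syt4, a form that does not bind calcium as Syt1 does, went from 8102 and 5654 to 3490.0, 2999 and 3445 (log2 −1.03, SE 0.20, adjusted p = 0.0081). Syt11 was at 27919 and 40471 and 26359, 27595 and 24775, every labelled library below both controls but by little (log2 −0.36, interval −0.74 to 0.02, adjusted p = 0.17). It passed with libraries scaled to equal totals (adjusted p 0.048 to 0.68 over 14 alternatives). Syt2, the fast sensor of some amacrine and bipolar cells, was near the floor of the data at 62.1 and 17.7 and 11.4, 21.6 and 38.7, and its interval of −3.21 to 1.97 covers falls and rises (0.26 without control 1).

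**Figure D2:**
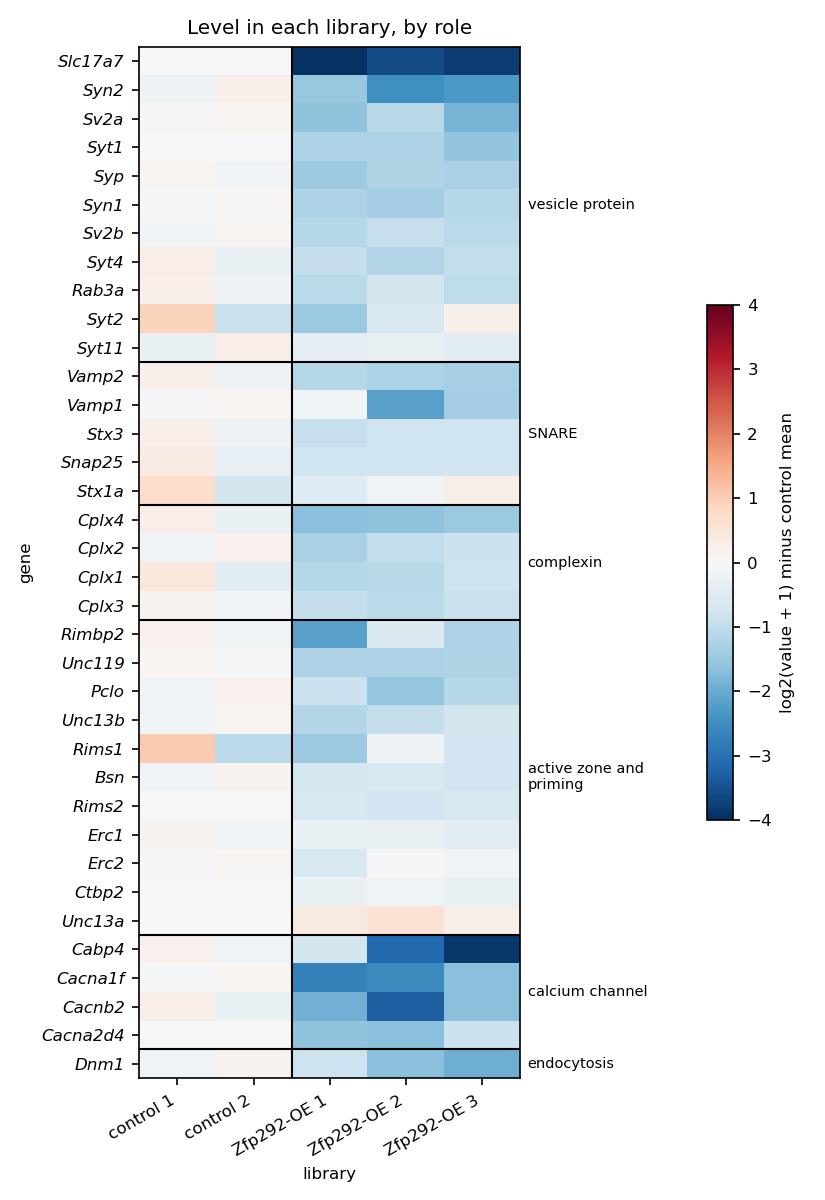
Each row is a gene and each column a library, grouped by role; colour gives log2(value + 1) minus the mean of the 2 controls, blue lower and red higher. The 3 labelled libraries are blue in nearly all rows, with the lowest mean differences for Slc17a7, Cabp4, Cacna1f, Cacnb2 and Syn2, in that order, while Unc13a is pale red.

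Among SNAREs, 3 of 5 fell and none rose. Vamp2, the main vesicle SNARE of retinal synapses (chromosome 11, 69088528 to 69092381), went from 11712 and 8760.3 to 4593, 4168 and 4034, a 2.38-fold fall with no overlap (SE 0.18 on the log2 scale, adjusted p = 0.0018). Snap25, its partner on the plasma membrane (chromosome 2, 136713439 to 136782428), had 139290.0 and 87509 in controls. The labelled libraries nearly coincided, at 63433, 63801 and 63719, and lay below both controls (log2 −0.79, SE 0.19, adjusted p = 0.019). Its call was lost without any 1 labelled library (adjusted p 0.00034 to 0.13 over 14 alternatives). Stx3, the syntaxin of ribbon synapses (chromosome 19, 11775118 to 11821569), went from 24609 and 18654 to 11295, 12399.6 and 12230.3 (log2 −0.84, SE 0.16, adjusted p = 0.0071). Stx1a, a syntaxin of conventional synapses (chromosome 5, 135023482 to 135051100), was at 1530.2 and 559.9 in the 2 controls and 648, 838 and 1087 in the labelled libraries, which all lay between the controls. Its log2 fold change was −0.14 (interval −1.11 to 0.82, adjusted p = 0.85) and became 0.58 without control 1 and 0.04 without labelled library 1. Vamp1, a vesicle SNARE of some neurons, was at 367 and 412 and 357, 86.5 and 146, with 1 labelled library close to the controls (adjusted p = 0.20).

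All 4 complexins fell, those of ribbon and of conventional synapses alike in direction. Cplx3 (chromosome 9, 57599992 to 57606281), which binds the SNARE complex in photoreceptors, bipolar and some amacrine cells, went from 74981 and 61820.4 to 35273, 32045 and 36554 (1.97-fold lower, SE 0.14 on the log2 scale, adjusted p = 0.0021). Cplx4, the photoreceptor form, went from 6943 and 4733 to 1795, 1861 and 2063 (3.01-fold lower, SE 0.22, adjusted p = 0.0015). In both, the labelled libraries were close together and well below the controls. Cplx2, of conventional synapses, had 15179.5 and 19103 in controls and 6974, 8689.9 and 9366 in the labelled libraries (2.06-fold lower, SE 0.18, adjusted p = 0.0045). Cplx1 had 2986 and 1682 and 1014, 1039 and 1256 (2.04-fold lower, SE 0.29, adjusted p = 0.038). The call for Cplx1 was lost without any 1 labelled library and with no filter (0.0043 to 0.23 over 14 alternatives).

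Active zone and priming genes had the smallest share called of any role, with 5 of 11 lower, none higher and a median of −0.70. Unc119, a lipid-binding trafficking protein concentrated in photoreceptors and their terminals (chromosome 11, 78343495 to 78349164), had the highest level per length of the 36 in controls, at 57102 normalised reads per kilobase of merged exon. Its values were 146348 and 133222 in controls and 59991, 59583 and 60530.0 in the labelled libraries, which hardly differed from one another (2.33-fold lower, SE 0.13 on the log2 scale, adjusted p = 0.00053). Ctbp2 (chromosome 7, 132986998 to 133124009), which encodes the ribbon protein Ribeye and the widely expressed corepressor CtBP2, was at 8873 and 9037 and 7467, 8010.4 and 7301. The labelled libraries lay below both controls, but by only −0.24 on the log2 scale (interval −0.57 to 0.09, adjusted p = 0.29). The value is a sum over the gene: in GENCODE M21 a transcript of 988 codons begins at the downstream start shown above and one of 445 codons begins far upstream. The table does not separate the products.

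Bassoon and Piccolo are the giant scaffolds of both kinds of active zone. Pclo (chromosome 5, 14514906 to 14863465) went from 6081 and 7577 to 3701, 2298 and 3053 (log2 −1.20, SE 0.23, adjusted p = 0.0074). Bsn, which anchors the photoreceptor ribbon, went from 3964 and 4717 to 2642, 2783 and 2570.0 (log2 −0.70, SE 0.19, adjusted p = 0.030). Rims2, the RIM form of photoreceptors, went from 3188 and 3074 to 2028, 1831 and 2001 (log2 −0.68, SE 0.20, adjusted p = 0.040). The calls for Bsn and Rims2 were lost without any 1 labelled library and with a replicate block (0.0014 to 0.17 and 0.0029 to 0.16 over 14 alternatives). Rims1 differed more between its controls, 6609 and 1577, than between groups, with 1175, 2778 and 1903 in the labelled libraries (adjusted p = 0.32), and its log2 fold change of −0.81 became 0.22 without control 1. Rimbp2, which links RIM to calcium channels, was at 561 and 433 and 108, 331 and 207, lower without overlap yet not called (log2 −1.33, interval −2.54 to −0.12, adjusted p = 0.12). The ELKS scaffolds showed small differences that did not pass. Erc1 was at 2523 and 2092 and 1926, 1887 and 1722 (adjusted p = 0.33), and Erc2 at 2152 and 2409.8 and 1481, 2209 and 2078 (adjusted p = 0.48).

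The Munc13 priming factors had changes of opposite sign, only the lower of which passed. Unc13b, or Munc13-2, which photoreceptors express (chromosome 4, 43046193 to 43264873), fell from 4828 and 5605 to 2322, 2658 and 3116 (log2 −0.96, SE 0.20, adjusted p = 0.011). Unc13a, or Munc13-1, the main priming factor of conventional synapses (chromosome 8, 71624125 to 71671774), was at 2315 and 2269 in controls and 2939, 3387 and 2719 in the labelled libraries. It was the single member whose labelled libraries all lay above both controls, but its log2 fold change of 0.39 did not pass (interval −0.05 to 0.83, adjusted p = 0.20), nor did it in any of 14 alternatives (0.14 to 0.57). The call for Unc13b was lost without labelled library 1 or 2 (8.1e-05 to 0.16 over 14 alternatives).

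**Figure D3:**
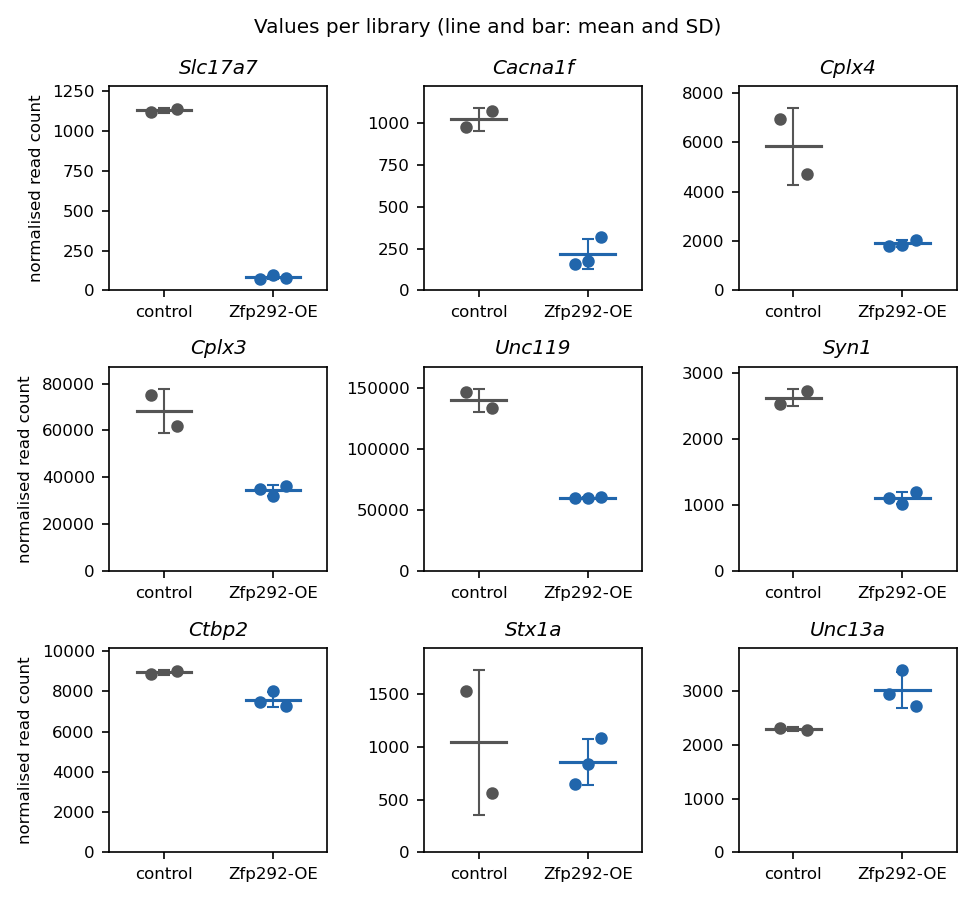
Normalised read counts per library for 9 genes; points are libraries, and the line and bar are the mean and SD (n = 2 control, n = 3 labelled Zfp292-OE). Slc17a7, Cacna1f, Cplx4, Cplx3, Unc119 and Syn1 are lower in all labelled libraries, Ctbp2 slightly so, Stx1a overlaps and Unc13a is higher.

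The calcium channel of photoreceptor terminals had the lowest median of any role (−2.30), with 3 of 4 genes called. Cacna1f, the pore subunit of the channel Cav1.4 (chromosome X, 7607103 to 7635196), had 975 and 1071 in controls and 155, 175 and 318 in the labelled libraries. The groups lay far apart (4.96-fold lower, log2 −2.31, SE 0.44, adjusted p = 0.0074). Cacna2d4, its extracellular subunit (chromosome 6, 119236524 to 119352407), had 9359 and 9368 in the controls, which nearly coincided, and 3047, 2935 and 5116 in the labelled libraries (log2 −1.39, SE 0.24, adjusted p = 0.0049). Cacnb2, the cytoplasmic subunit (chromosome 2, 14603861 to 14988811), went from 1444 and 994 to 318, 121 and 378 (log2 −2.29, SE 0.52, adjusted p = 0.016), and lost its call without labelled library 1 (0.00035 to 0.21 over 14 alternatives). Cabp4, the calcium-binding regulator of Cav1.4 (chromosome 19, 4135423 to 4144080), was at 492 and 384 and 258, 49.8 and 29.3. Library 1 stood closer to the controls than the others, and the log2 fold change of −2.56 did not pass (SE 0.86, adjusted p = 0.067). It passed without library 1 and with equal totals (0.030 to 0.36 over 14 alternatives).

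Dnm1, the neuronal dynamin that cuts vesicles from the membrane in endocytosis (chromosome 2, 32308471 to 32353349), went from 2287 and 2791 to 1415, 789 and 651 (log2 −1.49, SE 0.34, adjusted p = 0.017). Its call was lost without labelled library 2 (0.0010 to 0.25 over 14 alternatives).

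Ribbon genes and conventional genes were both lower, and their ranges of change overlapped widely. Of 9 ribbon genes 7 fell and 2 did not pass (median −1.39). Of 6 conventional genes 4 fell and 2 did not pass (median −1.03), and of the other 21 genes 14 fell and 7 did not pass (median −1.03). Relative to the control mean, the ribbon median was −1.22, −1.62 and −1.21 in labelled libraries 1, 2 and 3, and the conventional median −1.19, −1.04 and −0.85. The ribbon median was the lower in each, though only barely in library 1. The difference between the classes was not tested, since the genes of a class are not replicates. Within the ribbon class the log2 fold changes of the 4 channel genes lay between −2.56 and −1.39, that of Cplx4 was −1.59, within the same range, those of Stx3, Cplx3 and Unc119 lay between −1.22 and −0.84, and that of Ctbp2 was −0.24.

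Families that hold several forms were compared by share, using values per kilobase of merged exon. Slc17a7 and Unc13b, whose shares are given too, are not in the ribbon class above. Cplx3 and Cplx4 together made up 86.7 and 83.4% of complexin signal in the controls and 87.3, 84.1 and 84.5% in the labelled libraries. Here the groups overlapped, so this pooled share did not differ beyond the spread between libraries. It is mostly Cplx3, at 23163 normalised reads per kilobase in controls against 3008 for Cplx4. The pooled share therefore cannot show a shift between single forms, and Cplx4 fell 3.01-fold beside 1.97-fold for Cplx3. The share held by Cacna1f among 6 alpha1 subunits (with Cacna1a to Cacna1e) was 20.5 and 19.9% in controls and 5.20, 7.61 and 9.03% in the labelled libraries. For Slc17a7 among the 3 vesicular glutamate transporters it was 77.6 and 75.6% and 16.2, 29.1 and 9.84%. In these families the labelled libraries lay well below the controls. The same order without overlap held for Cacna2d4 among alpha2delta subunits (62.2 and 58.0% and 49.0, 47.9 and 54.4%) and Cacnb2 among beta subunits (14.1 and 8.49% and 6.08, 2.04 and 6.42%). It also held for Unc13b among Munc13 genes (35.1 and 38.2% and 22.8, 23.1 and 29.5%). No test was made on the shares.

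**Figure D4:**
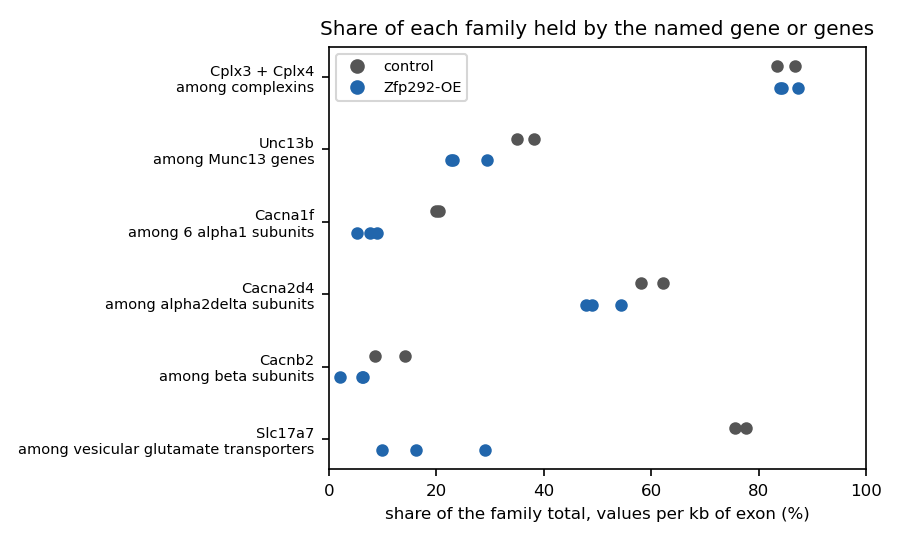
Share of a gene family's summed signal (values per kilobase of merged exon, in %) held by the gene or genes named at left; each point is a library. Control and labelled points overlap for complexins and lie apart, labelled lower, in the other families.

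The paralogs outside the 36 included genes that fell as well. Among alpha1 subunits, Cacna1d of the L-type channel Cav1.3 fell (log2 −1.13, SE 0.33, adjusted p = 0.044), while Cacna1a of the P/Q-type channel (−0.33, adjusted p = 0.32) and Cacna1c of the L-type channel Cav1.2 (−1.18, adjusted p = 0.20) did not pass. Of the alpha2delta subunits, Cacna2d1 (−0.83) and Cacna2d2 (−1.29) fell and Cacna2d3 (−0.72, adjusted p = 0.30) did not pass. Of the beta subunits, Cacnb1 fell (−1.97, SE 0.57, adjusted p = 0.040), and Cacnb3 (−0.77) and Cacnb4 (−0.58) did not pass. The calls for Cacna1d, Cacna2d1, Cacna2d2 and Cacnb1 were each lost without labelled library 1 and without library 2 (adjusted p up to 0.27 over 14 alternatives), and those for Cacna1d and Cacna2d2 also without library 3 and with a replicate block. With no filter the calls for Cacna1d, Cacna2d2 and Cacnb1 were lost. Cacnb3 passed with equal totals and in DESeq2, and Cacna2d3 with a replicate block. In all, 8 of 17 genes were lower and 0 higher in this list, which holds calcium-binding proteins beside channel subunits. Among the 8 were the calcium-binding proteins Cabp1 (−0.92), Cabp2 (−2.07) and Cabp5 of bipolar cells (−1.33). Cabp5 is also counted among the bipolar markers below.

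Of 98 tested genes in 7 further lists of the release pathway, 36 fell, 2 rose and 60 did not pass (median −0.68). Across all tested genes 7.38% were called lower and 10% higher. The lists are short, so counts of 2 in a list say little beside that share. Vesicle endocytosis had 7 of 18 lower, led by Amph, which recruits dynamin, at 8846 and 10408 in controls and 2882, 2056 and 1848 in the labelled libraries (log2 −2.11, SE 0.22, adjusted p = 0.00050). Bin1, the partner of Amph, fell alongside it (log2 −1.71), while the clathrin chains and 4 of 5 AP-2 genes of every cell's endocytosis were among those not called. Photoreceptor synaptic adhesion had 7 of 12 lower, with Lrit1, a membrane protein of photoreceptor terminals, at 5478 and 5735 and 1302, 1317 and 1240.0 (log2 −2.12, SE 0.20, adjusted p = 0.00037) and the neurexin Nrxn3 at −1.34. Of the other active zone and priming genes 5 of 10 fell, among them Tspoap1, a RIM-binding protein (−1.59), and Cadps, a factor for dense-core vesicles (−1.44). Other vesicle proteins had 5 of 15 lower, including Scamp5 (−1.17) and Scamp1 (−0.85). Other SNAREs and their regulators had 2 of 14 lower, the fusion ATPase Nsf (−0.91) and its adaptor Napb (−0.94). Other synaptotagmins had 2 of 12 lower, Syt7 (−1.71) and Syt5 (−0.92). Among the genes named here with both controls kept, the calls for Cabp1, Cabp5, Napb, Scamp1 and Syt5 were lost without at least 1 labelled library, and that for Syt5 also with a replicate block, with the largest adjusted p between 0.051 and 0.077.

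**Figure D5:**
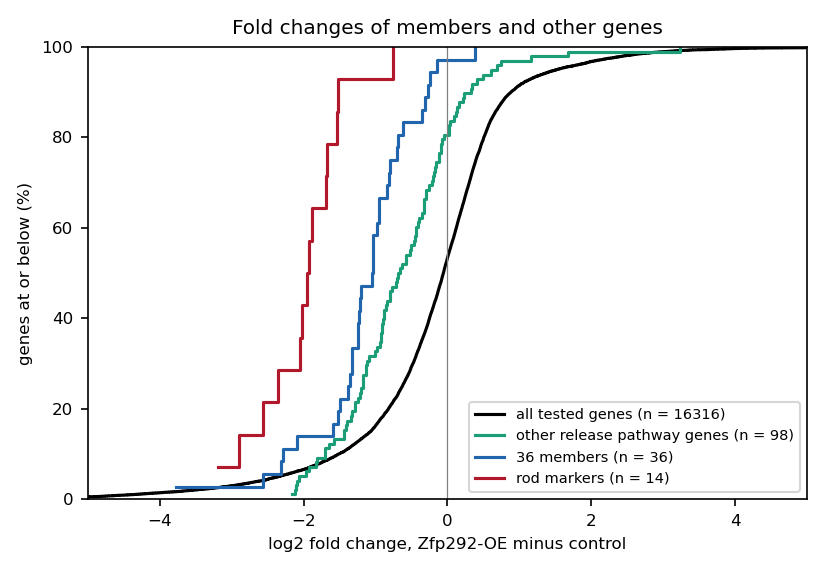
Cumulative share of genes (y axis, %) at or below each log2 fold change (x axis) for all 16316 tested genes, 98 other release pathway genes, the 36 members and 14 rod markers. Above its lowest steps the member curve lies left of that of all genes, with a median of −1.04, and right of the rod markers, with a median of −1.95; genes beyond the ends of the axis are not drawn.

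Markers of several cell types moved with these genes. All 14 rod markers fell (median −1.95). Of 11 bipolar markers 8 fell (median −2.75), with a summed level of 30729 to 33060 in controls and 6046 to 7589 in the labelled libraries. Vsx1, Grm6 and Bhlhe23 were at 0 in at least 1 library of either group. All 10 cell cycle markers rose (median 2.35; sums of 48455 to 53346 in controls and 184203 to 348396 in the labelled libraries). Of 10 progenitor markers 5 rose and 1 fell, with sums of 216209 to 239069 in controls and 303356 to 357809 in the labelled libraries. Of 10 cone markers 4 fell, the sums being 115551 to 144788 and 61842 to 89964, and Opn1mw was at 0 in at least 1 library. Of 10 Müller glia markers 5 fell and 1 rose, with sums of 679925 to 839306 in controls and 352041 to 436301 in the labelled libraries. Astrocyte markers had 4 of 5 lower, with sums of 52930 to 58427 and 12825 to 26587, and Pax2 at 0 in at least 1 library. Amacrine and horizontal markers had 2 of 12 lower and 1 higher, with sums of 53261 to 54455 and 33997 to 44356. Ganglion cell markers had 0 of 9 in either direction (edgeR also 0, and 0 at an unadjusted p below 0.05). Their median was 0.33, with overlapping sums of 4807 to 6611 in controls and 5618 to 13174 in the labelled libraries. Microglial markers varied from library to library, with sums of 3001 to 10157 and 369 to 4482, and 0 of 8 passed (edgeR also 0, and 1 at an unadjusted p below 0.05). Endothelial and mural markers had 2 of 8 lower and 1 higher, with sums of 42489 to 49650 and 35177 to 44070. Values of 0 in at least 1 library were not limited to lists that fell. They also occurred for Chat (amacrine), Pou4f2 and Pou4f3 (ganglion), and Csf1r and Tmem119 (microglia). Cdh5, Tek, Rgs5 and Kcnj8 of the endothelial and mural list had them too. The part of these cell types in the falls above was not tested.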

How the data were processed

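The deposited table gives, for 24594 genes in 2 control libraries and 3 libraries labelled Zfp292-OE, a normalised signal that the authors made by dividing each library's read counts by a constant, judging from the values. Every value was a whole multiple of its library's smallest value above 0 (100% within 1e-06 of a read), so whole reads were recovered. Builds GRCm38 and mm10 are named in the submitters' processing notes. The sources used here do not give aligner, counter, annotation or strandedness, so overlapping genes cannot be told apart. Per the labels' protocols, 1.3 µg of total RNA entered each library.

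Genes with a mean of at least 10 entered a limma fit (version 3.58.1, with a mean-variance trend, in R 4.3.3) of log2(value + 1), Benjamini-Hochberg adjusted over 16316 genes, threshold 0.05. Fold changes on that scale understate changes of low genes. On whole reads, the quasi-likelihood test of edgeR 4.0.16 and DESeq2 1.42.0, other pseudocounts (0.5 and 10), no filter or a filter at 50, TMM, equal totals, leaving out each library and a replicate block were alternatives, 14 in all. The scripts were tested on simulated data. Exon lengths come from GENCODE M21 (GRCm38), gene spans and promoters from RefSeq GRCm38.p6. Plots used Python 3.11.15 with matplotlib 3.10.9. Members and lists were chosen with earlier results of these data known. Named genes are the members, Zfp292, fixed paralogs and the 2 genes with the smallest p in each further list; 1 listed gene is not reported here.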

Additional observations from a re-analysis of the deposited data

How the results depend on the processing

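With both controls kept and no library left out, 317 of 323 member results kept their direction and side of the threshold, 4 lost a call and 2 gained one. The share of called genes that rose was 57.5%, and 31.5% with equal totals, which moved the median of all tested genes from −0.06 to −0.27. That scaling gave medians of −1.25 for the conventional and −1.25 for the remaining genes and a Zfp292 value of −0.17. The replicate numbers, by which the block would pair libraries, do not pair the libraries by any label, and deviations of same-numbered libraries correlated at −0.039 and −0.027. In effect the replicate block compares numbers 1 and 2 only. It called 2498 genes and 23 members and gave a ribbon median of −1.65 and a Zfp292 value of −0.011. Leaving out 1 library gave 0 to 2076 called genes (1175 and 1194 without labelled library 1 or 2) and 0 to 20 members lower. It gave medians of −1.65 to −1.25 (ribbon), −1.13 to −0.91 (conventional) and −1.14 to −0.91 (the rest), and −0.033 to 0.12 for Zfp292. Without control 1 the signs of Syt2 (0.26), Stx1a (0.58) and Rims1 (0.22) turned, and so did Zfp292 (−0.033); without control 2 those members were at −1.50, −0.87 and −1.85. Stx1a (0.04) turned without labelled library 1 and Zfp292 (−0.011) without library 3. Slc17a6 turned with equal totals (−0.062), with the block (−0.32) and without library 3 (−0.32), and was at 0.55 without library 2. Of the 25 lower members, 17 kept the call in all 12 alternatives with both controls. A single control leaves its spread assumed from the other group.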

Other observations

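Both release pathway genes that rose have a member or close relative that fell, a pattern picked out after the values were seen. Cadps2, which like Cadps acts in dense-core vesicle exocytosis, rose from 432 and 473 in the controls to 1182, 853 and 1013 in the labelled libraries (log2 1.15, SE 0.31, limma adjusted p = 0.032), while Cadps went from 5028 and 5103 to 2338, 2109 and 1328 (log2 −1.44, SE 0.26, adjusted p = 0.0056). Vamp3, the vesicle SNARE of housekeeping membrane traffic, rose from 13152 and 11181 to 20851, 18494 and 16375 (log2 0.61, SE 0.16, adjusted p = 0.027), while Vamp2 fell 2.38-fold. The labelled libraries lay above both controls for each gene that rose. Neither rise was firm: both calls were lost with equal totals and without labelled library 1 or 2, and that of Cadps2 also without library 3 and with a replicate block. Adjusted p ranged over 14 alternatives from 0.0019 to 0.17 for Cadps2 and from 0.0025 to 0.22 for Vamp3. The difference between the genes of each pair was not tested.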
